A study of Rattus norvegicus with 50 samples.

Results

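The Ensembl gene ID ENSRNOG00000013062 is 1 of 32545 IDs measured in the kidney cortex and medulla of ZSF1 rats. It was chosen by its FPKM in these libraries, which was higher with enalapril and lower with MK-8722 at 10 mpk than with vehicle in obese rats, in both tissues. Gene names stand neither in the deposited table nor beside an Ensembl ID in the reference used here, where 0 of the 32545 IDs could be looked up. The ID is therefore given no name, role or sequence, and the labelled tissues could not be checked against marker genes.

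The question behind the series is how activation of AMP-activated protein kinase, set beside inhibition of angiotensin-converting enzyme, changes a kidney with progressive diabetic disease. Obese ZSF1 rats, which carry mutated leptin receptor alleles, received enalapril at 10 mpk, MK-8722 at 1 mpk, MK-8722 at 10 mpk or vehicle, and lean ZSF1 rats received vehicle. Doses are in the unit of the labels. Treatment lasted 28 weeks by the labels, whose stated age of 20 weeks is shorter than that and was not used. Each of the 5 groups was measured in 5 libraries of cortex and 5 of medulla, 50 libraries in all. The labels do not say which libraries share an animal. The p-values thus rest on library-to-library spread, which may be partly technical.

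As background, enalapril blocks the enzyme that makes angiotensin II, and the kidney responds to the loss of angiotensin II feedback with changes in its own renin and salt-handling genes. MK-8722 directly activates AMP-activated protein kinase, an energy sensor that shifts cells away from synthesis of lipid and protein and towards fuel oxidation. Cortex holds the glomeruli and most proximal tubule, whereas medulla holds loops of Henle and collecting ducts. Nothing in the files says which of these cells or pathways ENSRNOG00000013062 belongs to.

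Levels are the authors' FPKM, which counts fragments relative to transcript length and to the total mapped in a library. Absolute depth is unknown. The relative depth of the libraries, read from the steps of low values, ranged from 0.599 to 1.53, and the 6 most abundant IDs of a library held 41.6% to 66.2% of its summed FPKM. Of the cortex libraries, 8 carry numbers in a separate higher range, which the labels do not explain.

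ENSRNOG00000013062 was an abundant transcript in most libraries. In cortex its level lay above that of 88.1% to 99.4% of the IDs detected in the same library, except in 1 library of MK-8722 10 mpk, where it lay above 64.5%. In medulla the position ranged from 54.7% with MK-8722 10 mpk to 98.2% with enalapril. In bulk tissue, a change in the number of cells that hold a transcript cannot be told apart from a change in its amount per cell.

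The highest levels in cortex were those with enalapril. The 5 enalapril libraries had 148, 176, 216, 240.0 and 350.2 FPKM, and the 5 obese vehicle libraries 57.1, 64.0, 76.4, 80.8 and 124 FPKM. Every enalapril library lay above every obese vehicle library. The means were 226 ± 77.9 and 80.6 ± 26.3 FPKM (SD, n = 5 each), a ratio of 2.80.

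In medulla the ratio was nearly the same at a lower level. The enalapril libraries had 71.2, 98.2, 126, 139 and 145 FPKM, and the obese vehicle libraries 29.5, 36.8, 36.9, 46.5 and 57.7 FPKM. Again the groups did not overlap. The means were 116 ± 30.7 and 41.5 ± 10.9 FPKM (SD, n = 5 each), a ratio of 2.79.

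The lowest levels in both tissues were those with MK-8722 at 10 mpk. In cortex its 5 libraries had 8.33, 22.9, 24.1, 38.8 and 45.8 FPKM, with a mean of 28.0 ± 14.7 FPKM (SD, n = 5), against 80.6 ± 26.3 FPKM in obese vehicle cortex. All 5 lay below the lowest obese vehicle library, and the obese vehicle mean was 2.88 times as high. In medulla the libraries at 10 mpk had 5.42, 5.78, 6.68, 8.70 and 11.2 FPKM, with a mean of 7.55 ± 2.40 FPKM, against 41.5 ± 10.9 FPKM in obese vehicle medulla (SD, n = 5 each). These groups did not overlap either, and the obese vehicle mean was 5.49 times as high.

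**Figure D1:**
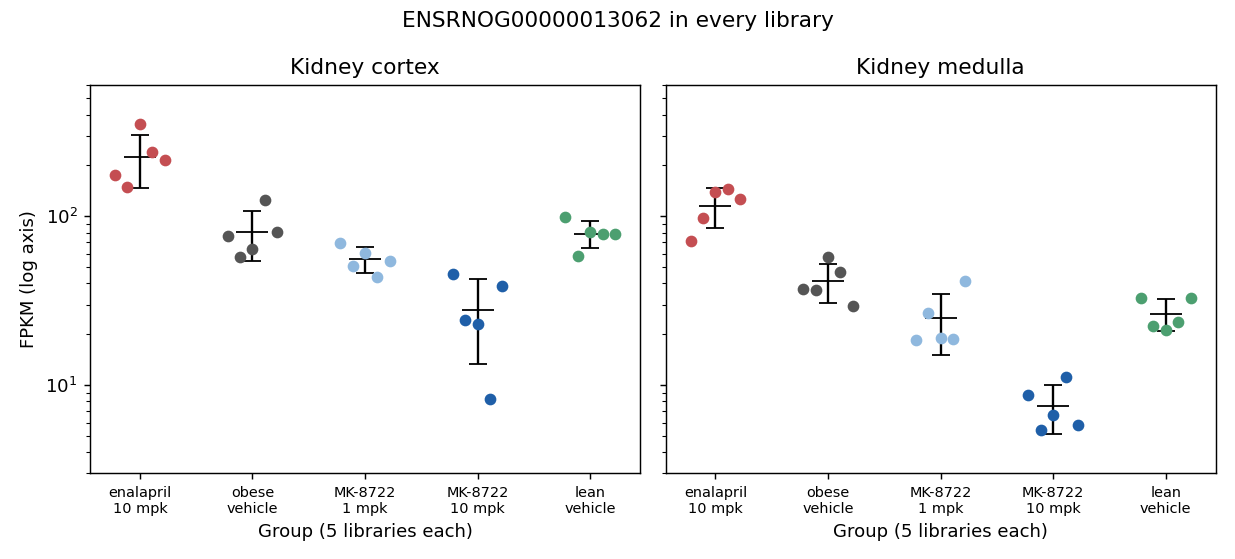
FPKM of ENSRNOG00000013062 (vertical log axis) in each library of cortex (left) and medulla (right) by group, with 1 point per library and bars for the group mean ± SD (n = 5). In both tissues the enalapril points lie above, and the MK-8722 10 mpk points below, all obese vehicle points.

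These contrasts chose the ID and are given as a description, with no test. On the scale used for all fits below, log2(FPKM + 0.5), the change with enalapril against obese vehicle had rank 3 from the top among 13579 IDs in cortex and rank 8 among 14195 in medulla. That with MK-8722 10 mpk had rank 15 from the bottom in cortex and was the lowest of all in medulla. Both drugs are set against the same obese vehicle libraries. Set against each other, the means with MK-8722 10 mpk and enalapril were 28.0 and 226 FPKM in cortex and 7.55 and 116 FPKM in medulla, so that the enalapril mean was 8.07 and 15.3 times as high.

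The choice of the ID can be placed among its neighbours. Of 13373 IDs tested in both tissues, 600 (4.49%) were higher with enalapril and lower with MK-8722 10 mpk in both tissues by direction alone, and 328 showed the reverse. ENSRNOG00000013062 had the largest value for the smallest of its 4 log2 fold changes in absolute size, 1.46. The next were ENSRNOG00000019260, with 0.77, and ENSRNOG00000018402, with 0.68, both much less abundant. ENSRNOG00000019260 averaged 3.41 FPKM with enalapril, 0.40 FPKM with MK-8722 10 mpk and 1.17 FPKM with vehicle in obese cortex. ENSRNOG00000018402 averaged 26.7 FPKM with enalapril, 1.66 FPKM with MK-8722 10 mpk and 8.72 FPKM with vehicle in obese medulla. Of the 600 IDs, 4 had all 4 log2 fold changes at 0.5 or more in absolute size.

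The lower dose of MK-8722 took no part in that choice, although the obese vehicle libraries it is set against did. In cortex its libraries had 43.8, 50.9, 54.3, 60.2 and 69.6 FPKM, with a mean of 55.8 ± 9.74 FPKM, against 80.6 ± 26.3 FPKM with vehicle (SD, n = 5 each). Of these libraries, 3 lay below every obese vehicle library and the rest overlapped them. On the log2 scale the difference was -0.49 ± 0.32 (SE, limma, adjusted p = 0.9994 over 13579 IDs), with a 95% interval of -1.16 to 0.18.

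In medulla the libraries at 1 mpk had 18.6, 18.8, 19.0, 26.6 and 41.5 FPKM, with a mean of 24.9 ± 9.87 FPKM, against 41.5 ± 10.9 FPKM with vehicle (SD, n = 5 each). Here 4 of 5 lay below every obese vehicle library. This gave a log2 fold change of -0.76 ± 0.24 (SE), with a 95% interval of -1.26 to -0.26 and an unadjusted limma p of 0.00424, and it did not pass over all IDs (adjusted p = 0.9998 over 14195 IDs). An exact two-sided permutation test of this single value gave p = 0.0476 in each tissue, or 0.0582 adjusted over the 11 exact tests run. The share of IDs called at 1 mpk, with an adjusted p under 0.05, was 0.0% in both tissues, and 583 IDs in cortex and 577 in medulla had an unadjusted limma p under 0.05.

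The group means were ordered by dose in both tissues. They were 80.6, 55.8 and 28.0 FPKM with vehicle, 1 mpk and 10 mpk in cortex, and 41.5, 24.9 and 7.55 FPKM in medulla. The choice of the ID had put 10 mpk below vehicle, so only the place of 1 mpk was free. In cortex 1 library at 10 mpk overlapped the range at 1 mpk, whereas in medulla the 2 doses did not overlap. The log2 fold change of 10 mpk against 1 mpk was -1.17 in cortex and -1.63 in medulla, given without a test because the low level at 10 mpk chose the ID. The effect of 1 mpk did not pass as different between the tissues, with a log2 difference of 0.27 for cortex minus medulla (95% interval -0.56 to 1.10, limma adjusted p = 0.9993, where 400 IDs had an unadjusted p under 0.05 and 0.0% were called).

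No difference with obesity passed the test in cortex. The obese vehicle libraries of this comparison took part in the choice of the ID, and the lean libraries did not. Obese vehicle cortex had a mean of 80.6 ± 26.3 FPKM and lean vehicle cortex 78.9 ± 14.2 FPKM (SD, n = 5 each), and the lean libraries had 58.5, 78.4, 78.6, 80.4 and 98.7 FPKM. Their log2 fold change was -0.01 ± 0.32 (SE, limma, adjusted p = 0.9893), with a 95% interval of -0.67 to 0.66. The median over all IDs was 0.30, and 54.3% of 13579 IDs were called higher and 6.83% lower. Relative depth was 1.02 ± 0.212 in obese vehicle and 1.36 ± 0.0811 in lean vehicle cortex (SD, n = 5 each), and with depth as a term the log2 fold change was also -0.01. After rescaling it was -0.37 and did not pass (adjusted p = 0.401).

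In medulla the obese level was higher on the deposited scale. Here too the obese vehicle libraries had taken part in the choice of the ID. Obese vehicle medulla averaged 41.5 ± 10.9 FPKM and lean vehicle medulla 26.5 ± 5.72 FPKM (SD, n = 5 each). The lean libraries had 21.2, 22.3, 23.7, 32.7 and 32.7 FPKM, and 4 of the 5 obese vehicle libraries lay above all of them. A log2 fold change of 0.62 was called, with an SE of 0.24 (limma, adjusted p = 0.0254 over 14195 IDs). In this comparison 56.8% of all IDs were called higher and the median log2 fold change was 0.37, a share that this call must be read against. After each library was rescaled by its median ratio, the log2 fold change was 0.23 and did not pass (adjusted p = 0.495). By relative depth these libraries stood at 0.727 ± 0.0816 in obese vehicle and 1.13 ± 0.0773 in lean vehicle medulla (SD, n = 5 each). With depth as a term the log2 fold change was 1.02 (adjusted p = 0.0283). The call also missed the threshold without lean vehicle replicate 3, 5 or 6 or obese vehicle replicate 5 or 6, with values of 0.50 to 0.59 and adjusted p of 0.0504 to 0.0796.

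The difference between the tissues in the effect of obesity was itself tested and did not pass. It was -0.63 ± 0.41 (SE) on the log2 scale for cortex minus medulla, with a 95% interval of -1.46 to 0.20 (limma adjusted p = 0.469 over 14586 IDs, of which 4.86% were called).

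The means of the obese rats at 1 mpk and of the lean rats come from no library that chose the ID. Their limma SE does use such libraries, because it is pooled over all 25 libraries of a tissue. On the log2 scale the cortex SD was 0.25 at 1 mpk and 0.27 in lean vehicle rats. It was 0.93 at 10 mpk, 0.47 with enalapril and 0.43 with obese vehicle. In cortex the means were 55.8 ± 9.74 FPKM with MK-8722 1 mpk and 78.9 ± 14.2 FPKM in lean vehicle rats (SD, n = 5 each). Here the log2 fold change was -0.49 ± 0.32 (SE, limma, adjusted p = 0.180), whereas 55.6% of IDs were called higher and 9.12% lower. The median over all IDs was 0.32. After each library was rescaled by its median ratio, the log2 fold change of ENSRNOG00000013062 was -0.87 and passed (limma adjusted p = 0.0351). It also passed when these 2 groups alone were fitted (adjusted p = 0.00745), and an exact two-sided permutation test gave p = 0.0238, or 0.0374 adjusted over 11 tests. Of 13579 IDs, 8784 were called in either direction without rescaling and 7137 after it. With the 2 groups alone fitted, 8616 IDs were called. The 2 limma passes of this ID must be read against these counts, whose share called lower is not given here. Under every other alternative listed below the difference did not pass (limma adjusted p = 0.162 to 0.308). Nor did it pass without any 1 library (limma adjusted p = 0.133 to 0.306).

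In medulla the means were 24.9 ± 9.87 FPKM with MK-8722 1 mpk and 26.5 ± 5.72 FPKM in lean vehicle rats (SD, n = 5 each). The log2 fold change was -0.14 ± 0.24 (SE, limma, adjusted p = 0.633), with a 95% interval of -0.63 to 0.36. Of all IDs, 52.0% were called higher and 11.9% lower, and the median was 0.32. After rescaling the log2 fold change was -0.48 and did not pass (adjusted p = 0.132).

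Set against the lean level, the drug groups lay on opposite sides of it. The enalapril means were 2.86 times the lean vehicle mean in cortex and 4.37 times in medulla, and no enalapril library overlapped a lean one. The MK-8722 10 mpk means were 0.355 and 0.285 times the lean vehicle mean in cortex and medulla, again with no overlap. These ratios use the groups that chose the ID and were not tested.

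ENSRNOG00000013062 was more abundant in cortex than in medulla under every treatment. The choice of the ID did not compare the tissues. It did use the libraries of both tissues with enalapril, with obese vehicle and with the higher dose of MK-8722. The tissue tests of these treatments are therefore not independent of the choice. The means of lean vehicle rats and of the lower dose come from no library that chose the ID, although their limma SE is pooled with such libraries. In lean vehicle rats the means were 78.9 ± 14.2 FPKM in cortex and 26.5 ± 5.72 FPKM in medulla (SD, n = 5 each), and no cortex library overlapped a medulla library. The log2 difference was 1.56 ± 0.29 (SE, limma, adjusted p = 2.44e-05). In that comparison 11.5% of 14586 IDs were called higher in cortex and the median log2 difference over all IDs was -0.14.

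With MK-8722 10 mpk the log2 difference was 1.67 (adjusted p = 8.84e-06, with 11.2% of IDs called higher in cortex), and with MK-8722 1 mpk it was 1.20 (adjusted p = 0.00114, with 11.3%). It was 0.94 with enalapril (adjusted p = 0.00655, with 9.96%) and 0.93 with obese vehicle (adjusted p = 0.00810, with 11.5%), all by limma with 5 libraries per tissue. The cortex and medulla libraries overlapped with MK-8722 10 mpk and with obese vehicle, where 4 of 5 cortex libraries lay above all medulla libraries. Exact two-sided permutation tests gave p = 0.00794 to 0.0238 over the 5 treatments, or 0.0291 to 0.0374 adjusted over 11 tests. The largest unadjusted value was that of MK-8722 10 mpk, whose cortex libraries had an SD of 0.93 on the log2 scale. Relative depth was also higher in cortex than in medulla in every treatment, for example 1.25 ± 0.167 in cortex and 0.767 ± 0.0988 in medulla with enalapril (SD, n = 5 each). With depth as a term the difference was 0.73 with enalapril and 0.79 with obese vehicle, and neither passed (adjusted p = 0.204 and 0.0852). The differences in lean rats and at both doses of MK-8722 did pass with that term.

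**Figure D2:**
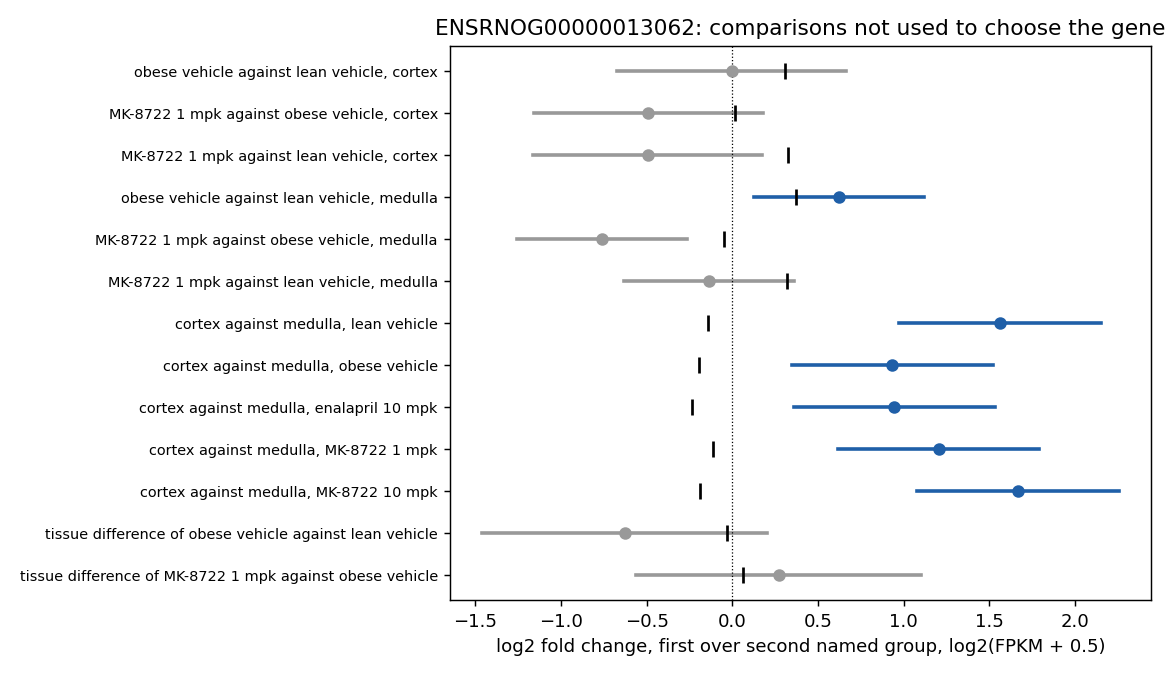
Log2 fold change of ENSRNOG00000013062 (points) with its 95% interval (lines) in the 13 comparisons that did not choose the ID, as the first named group over the second, or as cortex minus medulla for the bottom 2. Some of these comparisons use libraries that took part in the choice. Blue marks an adjusted p under 0.05, grey the rest, and the black tick is the median over all tested IDs. The 5 tissue comparisons lie well to the right of their ticks, whereas the obese against lean value in medulla lies close to its tick.

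The places of enalapril, obese vehicle and MK-8722 10 mpk relative to each other were fixed by the choice of the ID in both tissues. With the other groups included, the order of the group means in each tissue had enalapril highest, then obese vehicle, lean vehicle, MK-8722 1 mpk and MK-8722 10 mpk. Not every neighbour in this order was separate. In cortex obese vehicle and lean vehicle differed by 1.64 FPKM, and in medulla lean vehicle and MK-8722 1 mpk differed by 1.60 FPKM, both below the SD of either group. Lean vehicle and MK-8722 1 mpk overlapped in cortex, as did obese vehicle and lean vehicle in medulla. After rescaling, obese vehicle stood below lean vehicle in cortex, at 78.0 ± 33.0 rescaled FPKM in obese and 96.3 ± 18.6 in lean vehicle rats (SD, n = 5 each).

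Libraries of one group differed more for this ID than is usual at its level. The pooled SD within groups was 0.47 on the log2 scale over all 50 libraries, against a median of 0.15 for the 988 IDs whose mean level lay within 0.5 on the log2 scale, and 23 of these had a larger SD. The widest group was MK-8722 10 mpk in cortex, where the highest library was 5.50 times the lowest, and the narrowest in relative terms was MK-8722 1 mpk in cortex, with a coefficient of variation of 17.5%. The library with 8.33 FPKM was replicate 6 of MK-8722 10 mpk in cortex.

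**Figure D3:**
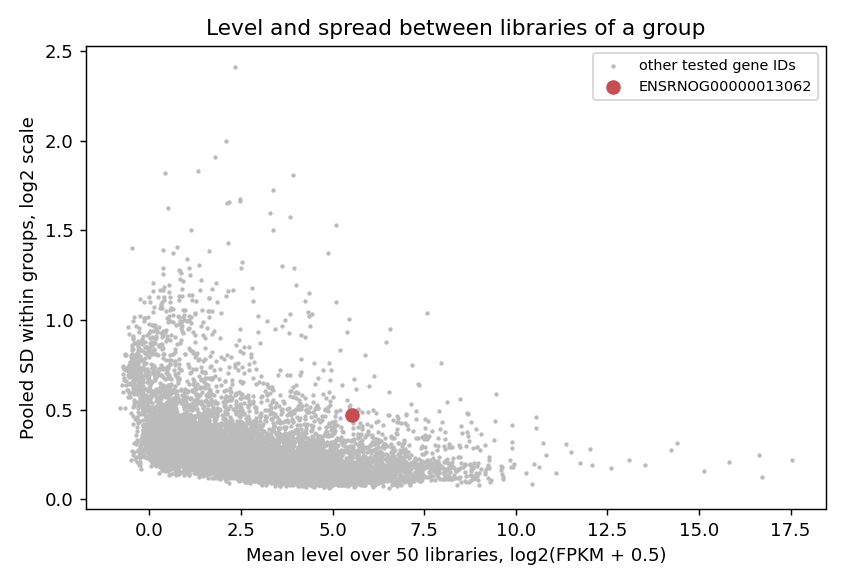
Pooled SD within groups (vertical, log2 scale) against mean level over 50 libraries (horizontal, log2(FPKM + 0.5)) for 14586 tested gene IDs, with ENSRNOG00000013062 in red. It stands above most IDs of its level, at an SD of 0.47.

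The libraries in the higher number range are spread unevenly over the cortex groups, with 3 of MK-8722 10 mpk, 2 of lean vehicle and 1 of each other group. In the lower range the 2 libraries at 10 mpk had 24.1 and 45.8 FPKM, the 4 enalapril libraries 148 to 350.2 FPKM and the 4 obese vehicle libraries 57.1 to 80.8 FPKM. The full groups did not overlap, so no part of them could, and these ranges do not test the number range. The log2 fold change of MK-8722 10 mpk against obese vehicle was -1.66 with all libraries and -1.04 in the lower range, and that of enalapril was 1.47 and 1.60. Medulla has 0 libraries in the higher range, and the higher range of cortex holds too few libraries per group for values of its own.

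Other IDs had profiles that correlated with that of ENSRNOG00000013062 over the libraries of both tissues. Likeness was measured as Pearson's r of log2(FPKM + 0.5) over the 25 libraries of each tissue, and IDs were ranked by the smaller of their 2 values. Most alike were ENSRNOG00000005794, with r of 0.83 in cortex and 0.93 in medulla, and ENSRNOG00000013766, with 0.83 and 0.81. Over 13372 IDs the median of the smaller r was -0.12, and 28 IDs reached 0.7 in both tissues. Libraries of a tissue share their group differences and their scaling, so these values describe the profile only.

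ENSRNOG00000005794 is a low transcript whose medulla level was 5.40 ± 1.85 FPKM with enalapril, 0.81 ± 0.53 FPKM with MK-8722 10 mpk and 1.87 ± 0.52 FPKM with vehicle in obese rats (SD, n = 5 each). ENSRNOG00000013766 is abundant, with a narrower range of 151 ± 7.67 FPKM with enalapril, 85.1 ± 12.3 FPKM with MK-8722 10 mpk and 142 ± 20.4 FPKM with vehicle in obese cortex. Its log2 fold change with enalapril against obese vehicle was 0.10 in cortex and 0.32 in medulla. That of ENSRNOG00000013062 was 1.47 and 1.46. The most opposite IDs were ENSRNOG00000030022, with r of -0.80 in cortex and -0.75 in medulla, and ENSRNOG00000021182, with -0.77 and -0.82. After rescaling, the r of ENSRNOG00000030022 was -0.56 and -0.58, and that of ENSRNOG00000005794 was 0.85 and 0.93.

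**Figure D4:**
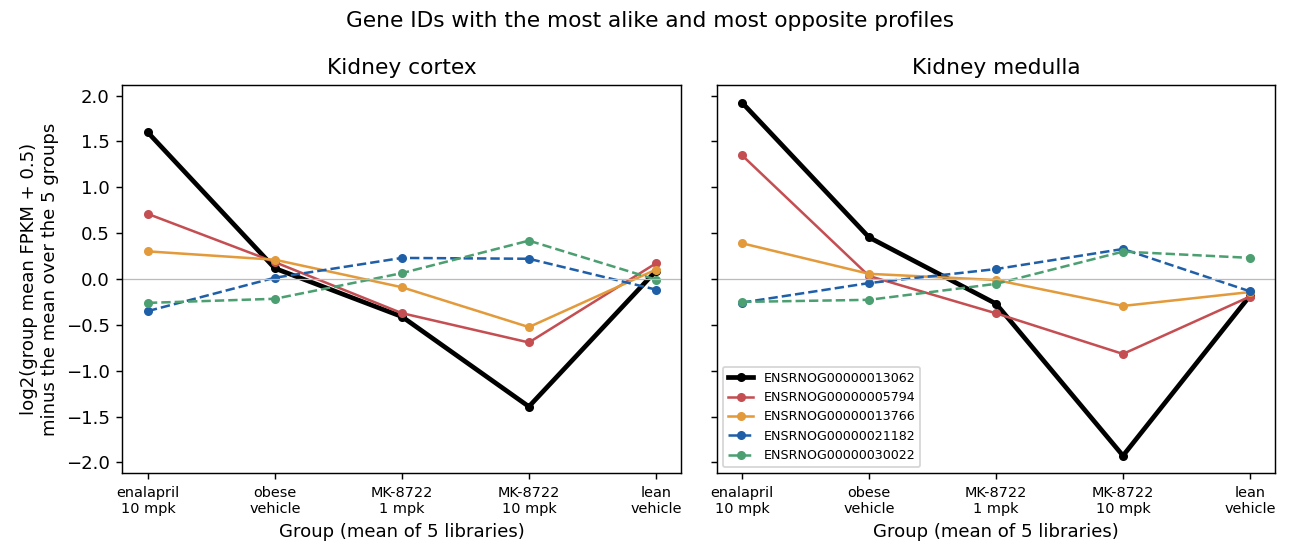
Log2(group mean FPKM + 0.5) of ENSRNOG00000013062 and of the 2 most alike and 2 most opposite IDs, minus the mean over the 5 groups, in cortex (left) and medulla (right). Each point is a group of 5 libraries and lines only guide the eye. The black line of ENSRNOG00000013062 spans the widest range, and ENSRNOG00000005794 follows it in the same order of drug groups.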

How the data were processed

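The authors deposited FPKM values for 32545 Ensembl gene IDs in 50 libraries, per the file headers. Per the labels, total RNA of frozen kidney was depleted of ribosomal RNA and made into stranded libraries. Which aligner, counting tool and build were used is not given in the sources used here. Columns were matched to samples by library number.

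From these values log2(FPKM + 0.5) was computed. IDs that reached 1 FPKM in at least 5 libraries of a fit entered limma 3.58.1 in R 4.3.3 (mean-variance trend, robust moderation). The 25 libraries of a tissue, or all 50 for tissue comparisons, had a mean per group. P-values are two-sided and adjusted by Benjamini-Hochberg over all IDs tested. Fold changes on this scale understate changes of low IDs. The procedure was tested on simulated data.

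Relative depth came from 59661 low values in 5012 IDs, of which 94.3% lay within 0.1 reads of a whole number of reads. Absolute depth is unknown, so no counting error can be given.

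Same-numbered libraries were checked for shared deviations from group means. Every pair exceeded r = 0.1 for MK-8722 10 mpk against obese vehicle in cortex (0.22 to 0.37) and for cortex against medulla with MK-8722 10 mpk (0.10 to 0.31). The labels state no pairing.

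Named IDs were the 2 most alike and 2 most opposite in profile, over all libraries and within groups, and the 2 next to ENSRNOG00000013062 in its pattern. The ID, comparisons and alternatives were chosen with earlier results of these data known.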

Additional observations from a re-analysis of the deposited data

How the results depend on the processing

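The 12 within-tissue contrasts of the drug groups kept their direction under all alternatives run (pseudocount of 0.1, no filter on low values, median-ratio rescaling, replicate block, relative depth or number range as a term, the compared groups alone, and single libraries left out). All 12 use groups whose level chose the ID, so the kept direction is a description and not a test. The replicate block ended 1 call: cortex against medulla with enalapril was 0.85 (adjusted p = 0.0540). With the block, the 1 mpk against lean value in medulla was 0.0066, and with depth as a term 0.18. The obese against lean value in cortex was 0.0058 with number range as a term. Depth as a term gave 0.79 and 0.73 for cortex against medulla with obese vehicle and enalapril. Obese against lean in medulla was 0.23 after rescaling. The 1 mpk against lean value in cortex passed after rescaling (-0.87), with 2 groups fitted (-0.49) and by the exact test (-0.49). The 1 mpk against vehicle values passed an exact test before adjustment over tests only (-0.49 in cortex, -0.76 in medulla).

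The tissue difference of the enalapril effect, a description, was 0.011, and -0.040 with the block and -0.056 with depth as a term. That of MK-8722 10 mpk was 0.73, and 1.35 without the 8 libraries of the higher number range. Leaving out single libraries gave -0.17 to 0.10 for obese against lean in cortex and 0.50 to 0.74 in medulla, and -0.16 to 0.18 for the tissue difference of enalapril. The cortex against medulla calls held without any 1 library, at 0.76 to 2.04 over the 5 treatments.

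Counts of IDs called over the whole table moved by over 1.5 times in these cases. With depth as a term, obese against lean gave 4581 in cortex and 5451 in medulla, against 8300 and 9611. With that term cortex against medulla gave 3698 in obese vehicle, 2782 in enalapril, 3161 in MK-8722 1 mpk and 2858 in MK-8722 10 mpk rats, against 6801, 7523, 4775 and 6913. Without the 8 libraries the MK-8722 10 mpk count was 4350. The count of 709 for the tissue difference of obesity was 338 with the block, 416 without the 8 libraries and 449 at the lowest without single libraries. For 1 mpk against vehicle, 3 IDs were called in cortex without the filter and at most 1 in medulla without a single library. Number range could not be fitted in medulla alone.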

Other observations

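A second set of IDs followed ENSRNOG00000013062 within groups, after the mean of each group was removed from all 50 libraries. Most alike were ENSRNOG00000014508 and ENSRNOG00000001242, both with r of 0.71, and both abundant. ENSRNOG00000014508 averaged 272 ± 15.1 FPKM with enalapril, 155 ± 29.5 FPKM with MK-8722 10 mpk and 219.6 ± 27.4 FPKM with vehicle in obese cortex, and ENSRNOG00000001242 averaged 276 ± 14.8, 205 ± 54.6 and 246 ± 28.0 FPKM in the same groups (SD, n = 5 each). Most opposite were ENSRNOG00000029115 and ENSRNOG00000024952, with r of -0.66 and -0.64. ENSRNOG00000029115 averaged 8.80 ± 0.35 FPKM with enalapril, 6.77 ± 2.91 FPKM with MK-8722 10 mpk and 11.6 ± 2.47 FPKM with vehicle in obese cortex. After rescaling the 4 values of r were 0.75, 0.76, -0.67 and -0.64. By Spearman's rank correlation, without rescaling, they were 0.66, 0.60, -0.62 and -0.59. Over 13372 IDs the median r within groups was -0.15, and 2 IDs reached 0.7. Scaling and depth are shared by all IDs of a library, and their part in these values was not tested beyond the rescaling.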
